A study of Mus musculus with 27 samples.

Results

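The 6 libraries from mice given FOLFOX, a probiotic complex and loperamide (group CAC_FPL) fell into sets of 3 that differ in red blood cell transcripts and in a gene of DNA synthesis. Libraries H1, H2 and H3 (replicates 1 to 3) had high haemoglobin and low Rrm2, and libraries H4, H5 and H6 (replicates 4 to 6) had low haemoglobin and high Rrm2. The sets were chosen by their measured haemoglobin and Rrm2 levels. The division covers 6 of the 27 libraries of the series and was seen in these data, not given by a label. Its differences are therefore described here without a test, and tests are taken from groups that played no part in it.

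All mice were BALB/c of wild-type genotype. NC mice were unprocessed and had saline (colon, n = 6). The other groups had AOM/DSS neoplasia, induced with azoxymethane, a carcinogen, and dextran sulfate sodium, an irritant of the colon, and tumor-bearing colon segments were taken. CAC mice had saline in place of drugs (n = 5). CAC_F mice received intraperitoneal FOLFOX, which combines fluorouracil with folinic acid and oxaliplatin (n = 5). CAC_FP mice received FOLFOX and the probiotic complex by gavage (n = 5), and CAC_FPL mice received loperamide, a gut opioid agonist given against diarrhoea, in addition (n = 6). Tissue was collected 1 week after chemotherapy began, all libraries carry the same batch label, and neither ages nor the hour of collection are stated in these sources. Depth was 67336922 to 76966764 counts in the CAC_FPL libraries and 56687812 to 79709845 in the series.

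Haemoglobin messenger RNA is carried into a tissue by reticulocytes, young red cells that keep some RNA after losing their nucleus, and the marrow that makes them is sensitive to cytotoxic drugs. Rrm2 is the regulated subunit of ribonucleotide reductase, which supplies deoxynucleotides for DNA synthesis and is made in S phase. Fluorouracil blocks thymidylate synthesis and oxaliplatin crosslinks DNA, so replication, mitosis and p53 target genes are usual readouts of this treatment in the crypts of the colon. Damaged colon epithelium loses goblet and absorptive cell products and makes repair and alarm signals such as epidermal growth factor ligands and acute phase proteins.

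The promoters of Hbb-bs, Rrm2 and the mitosis genes Ect2 and Hmmr are shown because they stand for the red cell and the proliferation sides of the division. Each runs from 250 bases before the start of the gene to 50 bases after it, 5′ to 3′ on the strand of the gene, from RefSeq on GRCm38.p6. Hbb-bs is at chr7:103827879-103828178 (minus strand), Rrm2 at chr12:24708004-24708303 (plus strand), Ect2 at chr3:27153829-27154128 (minus strand) and Hmmr at chr11:40733388-40733687 (minus strand). Capitals mark, on either strand, the NF-Y box CCAAT and, in Hbb-bs, the GATA site AGATAA and the CACCC box CCACACCC, or, in the other promoters, the cell cycle homology region TTTGAA.
Hbb-bs: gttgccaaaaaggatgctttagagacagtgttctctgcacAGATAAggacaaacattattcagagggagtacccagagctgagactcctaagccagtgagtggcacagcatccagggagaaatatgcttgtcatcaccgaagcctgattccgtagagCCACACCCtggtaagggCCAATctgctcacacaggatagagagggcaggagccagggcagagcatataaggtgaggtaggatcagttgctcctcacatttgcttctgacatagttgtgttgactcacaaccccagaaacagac
Rrm2: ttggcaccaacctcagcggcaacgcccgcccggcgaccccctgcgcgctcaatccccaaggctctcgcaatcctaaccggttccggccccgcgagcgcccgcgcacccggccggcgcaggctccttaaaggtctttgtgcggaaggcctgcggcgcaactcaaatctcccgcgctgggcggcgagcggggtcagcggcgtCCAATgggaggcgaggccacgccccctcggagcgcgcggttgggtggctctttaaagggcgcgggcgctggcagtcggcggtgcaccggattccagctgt
Ect2: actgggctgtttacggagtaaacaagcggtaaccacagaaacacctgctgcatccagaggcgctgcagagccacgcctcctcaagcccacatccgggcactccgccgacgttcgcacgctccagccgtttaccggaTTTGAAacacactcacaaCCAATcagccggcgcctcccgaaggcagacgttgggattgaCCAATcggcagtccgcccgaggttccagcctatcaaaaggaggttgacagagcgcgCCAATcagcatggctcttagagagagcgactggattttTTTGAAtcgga
Hmmr: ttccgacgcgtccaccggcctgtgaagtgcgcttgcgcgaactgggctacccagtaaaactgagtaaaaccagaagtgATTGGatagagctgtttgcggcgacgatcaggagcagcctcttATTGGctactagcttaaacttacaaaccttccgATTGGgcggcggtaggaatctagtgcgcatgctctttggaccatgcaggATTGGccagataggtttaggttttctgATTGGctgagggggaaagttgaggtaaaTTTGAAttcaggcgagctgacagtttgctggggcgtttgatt

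The Hbb-bs promoter held each of the 3 motifs once. Rrm2 had 1 CCAAT and no TTTGAA in this window, Ect2 had 3 and 2, and Hmmr had 5 and 1. Of all 32851 promoters of this length, 37.4% held CCAAT and 17.9% TTTGAA on either strand, and 11.2% held AGATAA and 3.56% CCACACCC. Promoter entries were found for 19 of the 22 mitosis genes that were at least 2-fold higher in H4 to H6. CCAAT was in 13 of these 19 and TTTGAA in 12. That set of 22 depends on library H3, since 0 mitosis genes reached 2-fold without it. Among 8 S phase genes with an entry, of 9 higher in H4 to H6, CCAAT was in 5 and TTTGAA in 1. All 4 haemoglobin promoters held CCAAT, and AGATAA and CCACACCC were each in 1 of the 4. A match of letters is a description and not a bound site.

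The markers, by whose levels the sets were chosen, separated them without overlap. Hbb-bs, an adult beta-globin gene, was at 69, 22.8 and 12.2 CPM (counts scaled to a common library size) in H1 to H3 and at 0, 0 and 1.31 CPM in H4 to H6. Hba-a1, an alpha-globin gene, was at 51.7, 15.9 and 9.65 CPM against 0, 0.361 and 1.17 CPM. Rrm2 was at 42.5, 45 and 22.3 CPM in H1 to H3 and at 113, 165 and 120 CPM in H4 to H6. The sum of the 4 measured haemoglobin genes was 174, 57.6 and 32 CPM against 0, 0.535 and 3.49 CPM, so the libraries next to the dividing line were H3 at 32 CPM and H6 at 3.49 CPM. For Rrm2 those libraries were H2 at 45 CPM and H4 at 113 CPM. By the authors' coordinates, of a build these sources do not name, Hbb-bs lies on chromosome 7 from 103475741 to 103477135, Hba-a1 on chromosome 11 from 32233511 to 32234465 and Rrm2 on chromosome 12 from 24758240 to 24764145.

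Other groups place these levels. Summed haemoglobin was 24.2 to 51.6 CPM in NC and 27.9 to 254 CPM in CAC, and at most 0.132 CPM in CAC_F and 0.328 CPM in CAC_FP. H1 to H3 thus lay within the range of CAC, and H4 alone lay within those of both CAC_F and CAC_FP, with H5 and H6 above them. Rrm2 was at 15.9 to 61.1 CPM in CAC, which holds H1 to H3, at 171 to 208 CPM in CAC_F, which lies above all 6, and at 83.7 to 170 CPM in CAC_FP, which holds H4 to H6.

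**Figure D1:**
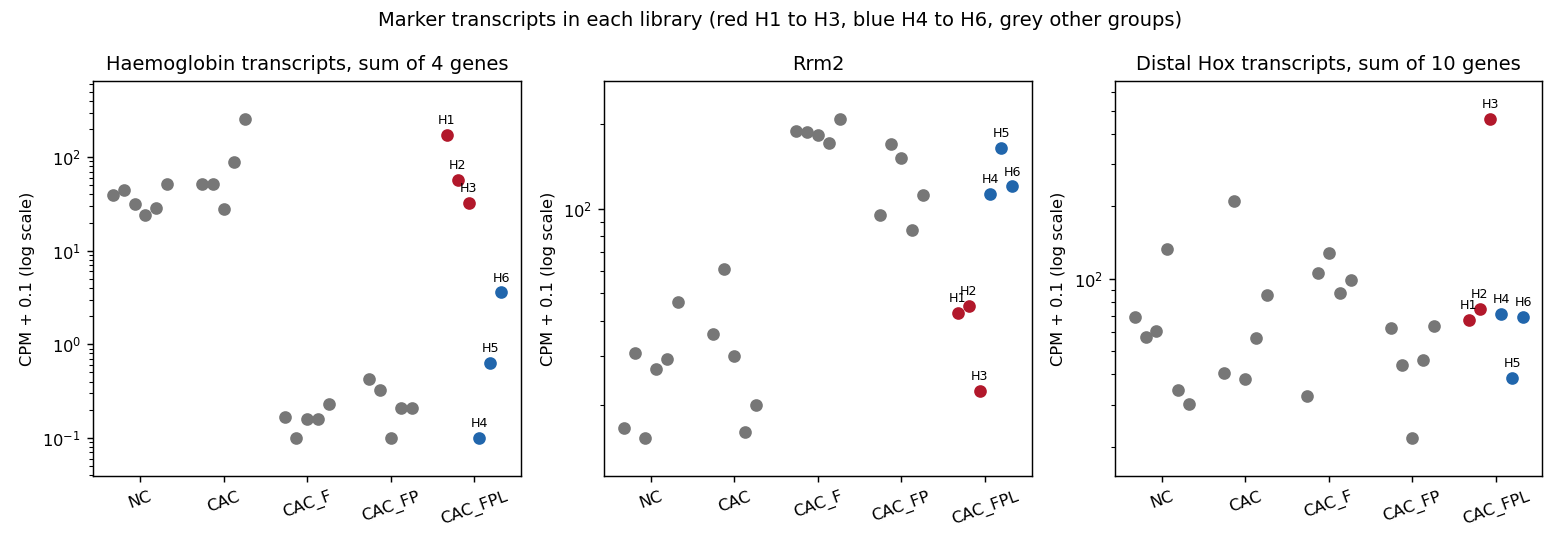
Levels of summed haemoglobin genes, Rrm2 and summed distal Hox genes in each of the 27 libraries, as CPM + 0.1 on a log axis, by group on the horizontal axis. H1 to H3 (red) sit within the CAC range for haemoglobin and Rrm2, H4 to H6 (blue) lie below it for haemoglobin, with H6 at 3.49 CPM between the groups, and above it for Rrm2, and H3 stands above all libraries in distal Hox transcripts at 461 CPM.

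Genes of nucleated red cell precursors were scarce in all 6 libraries. All 12 genes of that list were under the expression filter (an FPKM, the count per length and depth, of 1 or more in 5 or more libraries). Alas2, the haem synthesis enzyme of the red lineage, was at 2.09, 0.645 and 0.854 CPM in H1 to H3 and at 0.0994, 0.0668 and 0.0967 CPM in H4 to H6, without overlap. The precursor regulator Klf1 was at 0.218, 0.14 and 0.27 CPM against 0.112, 0.227 and 0.331 CPM, and Gata1 was at 0 to 0.196 CPM in all 6. The summed list was 2.59 to 5.09 CPM in H1 to H3 and 2.41 to 3.32 CPM in H4 to H6, which overlap. In RNA from whole tissue, fewer cells of a type and less RNA per cell cannot be told apart.

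H3 stood apart from the other CAC_FPL libraries before any division of them. Hoxb13, a homeobox gene of the most distal hindgut, was at 0.3, 0.0561 and 289 CPM in H1 to H3 and at 0, 0 and 0.304 CPM in H4 to H6. Hoxd13, under the filter, was at 47.3 CPM in H3 and at most 0.0936 CPM in the others, and Hoxa13 was at 56.4 CPM in H3 and 1.97 to 7.6 CPM in the others. Hoxd9, Hoxd10 and Hoxd11 were lowest in H3, at 0.824, 1.53 and 1.24 CPM. The summed distal Hox genes were at 461 CPM in H3, 38.5 to 75 CPM in the other 5 and 211 CPM in replicate 2 of CAC, with 21.7 to 133 CPM in the remaining libraries. Gut wall transcripts were low in H3 too, with summed smooth muscle genes at 2760 CPM against 3910 to 8060 CPM in the others and enteric neuron and glia genes at 36.6 CPM against 87 to 183 CPM. MHC class II genes summed to 1750 CPM in H3 and 897 to 1070 CPM in the others, and mast cell and eosinophil genes to 75.2 CPM against 3.21 to 19.3 CPM. Results are given below with and without H3 where it moves them. The part of these transcripts in the division was not tested.

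Over all genes, 280 of 15080 tested (1.86%) were higher in H1 to H3 and 389 (2.58%) were higher in H4 to H6, together 669 (4.44%). A gene was counted when all 3 libraries of a set lay above all 3 of the other and the means of log2(CPM + 0.1) differed by at least 1, which is 2-fold. These shares are themselves the background of the division, and nothing is read from them. Separation with no minimum fold was found for 2224 genes (14.7%) higher in H1 to H3 and 2119 (14.1%) higher in H4 to H6. The median difference (H1 to H3 minus H4 to H6) of the counted genes was 1.37 in the H1 to H3 direction and -1.36 in the other, on the log2 scale. The gap between the nearest libraries of the sets had a median of 0.52 and 0.48 log2 units. At least 4-fold were 58 and 83 genes, and at least 8-fold were 23 and 31. Without H3 the counts were 359 and 414, of which 212 and 254 were among the 280 and 389.

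The sets were not equally tight. H1 and H2 differed by at least 2-fold in 550 genes, whereas H3 differed from H1 in 2039 and from H2 in 1813. Within H4 to H6 the numbers were 1136, 1189 and 1986, the last for H5 and H6. Pairs across the sets differed in 1070 (H2 and H5) to 2921 genes (H3 and H6), so the ranges within and across sets overlap. For comparison, pairs within CAC differed in 760 to 2044 genes, pairs within CAC_F in 832 to 2481, and pairs of a CAC and a CAC_F library in 1603 to 3934. A principal component analysis of the 6 libraries put 41.7% of the variance on the first component, where H3 lay at -80.2, H2 at -14.3, H1 at -1.7, H5 at 13.7, H4 at 39.3 and H6 at 43.2. That order keeps the sets apart, and its widest step lies between H3 and H2, inside the high-haemoglobin set. Of the 669 genes, H1 was the library of its set nearest to the other set in 377 (56.4%) and H5 in 353 (52.8%).

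The comparison of CAC_F with CAC, fitted without any CAC_FPL library, asks what FOLFOX alone did to the same genes. In it 3120 of 15080 genes rose (20.7%) and 2905 fell (19.3%) by edgeR's quasi-likelihood test at an adjusted p below 0.05. Of the 389 genes higher in H4 to H6, 310 rose in CAC_F (79.7%), 3 fell and 76 were not called, with a median log2 fold change of 1.40. Of the 280 genes higher in H1 to H3, 215 fell in CAC_F (76.8%), 1 rose and 64 were not called, with a median of -1.39. Over all genes tested the median was -0.01. Without H3 in the division, 301 of 414 (72.7%) rose and 275 of 359 (76.6%) fell. Without H5, 416 of 742 (56.1%) rose with 28 falling, and 286 of 411 (69.6%) fell. Without H6 the shares were 66.2% and 62.9%. As each of the 6 libraries was left out, the share that rose was 56.1% to 77.8% and the share that fell 62.9% to 76.6%. CAC_FP against CAC, which shares the CAC libraries, had 1818 genes that rose (12.1%) and 1396 that fell (9.26%). There 256 of the 389 rose (65.8%) and 146 of the 280 fell (52.1%), with 1 in the opposite direction from each set. The sources used here do not say that each library is a separate animal, so these p-values measure the spread between libraries, which may be technical in part.

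**Figure D2:**
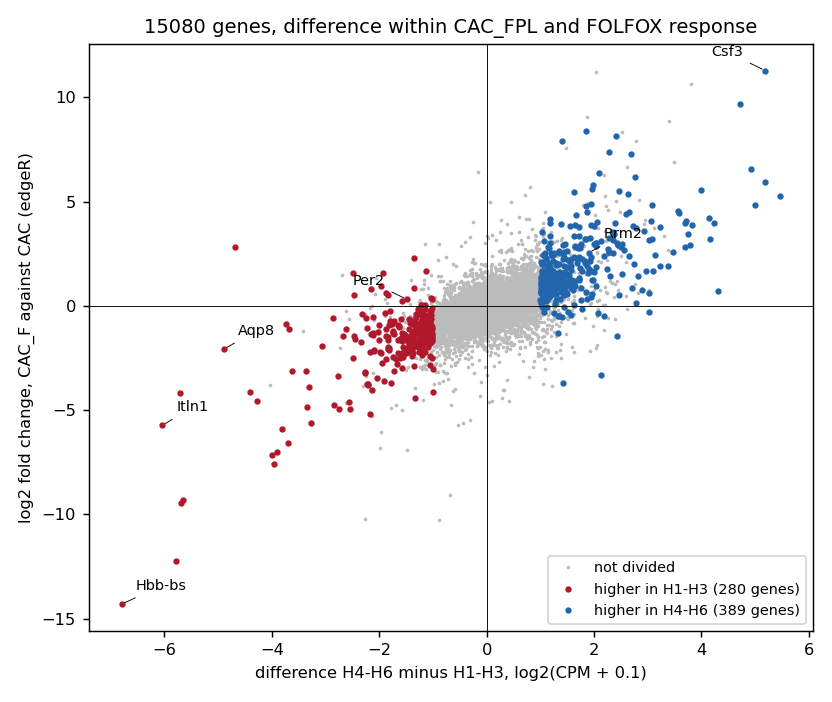
Each point is 1 of 15080 genes, with the difference of mean log2(CPM + 0.1) between H4 to H6 and H1 to H3 on the horizontal axis and the fitted log2 fold change of CAC_F against CAC on the vertical axis. The 389 genes higher in H4 to H6 (blue) lie mostly above 0 and the 280 higher in H1 to H3 (red) mostly below 0, and fitted folds of genes at 0 in a group, such as Hbb-bs, are no measure of size.

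Across the 15080 genes the difference between the sets and the fold change of CAC_F had a Pearson r of 0.634 and a Spearman rho of 0.593, as a description in which genes are not independent. The levels themselves show where each set lay. The 280 genes had a median of 0.23 log2 units above the CAC mean in H1 to H3 and 0.29 above the CAC_F mean in H4 to H6. For the 389 genes these medians were -0.23 against CAC in H1 to H3 and -0.17 against CAC_F in H4 to H6. All 3 libraries H1 to H3 were inside the range of the CAC libraries for 91 of the 280 and 111 of the 389 genes. All 3 of H4 to H6 were inside the range of CAC_F for 86 and 145 genes. Over all 15080 genes these counts were 5455 and 5231, so alone they do not set the counted genes apart. H1 to H3 were all inside the CAC_F range for 9 and 17 genes, beside 3336 of all genes. H4 to H6 were all inside the CAC range for 19 and 25, beside 3850.

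A scale between the groups gives 1 value for each library. The position is the mean over 889 genes that rose at least 2-fold in CAC_F against CAC minus the mean over 944 that fell at least 2-fold, set so that the CAC mean is 0 and the CAC_F mean 100. H1, H2 and H3 were at 24.4, 18.4 and 27.7 and H4, H5 and H6 at 70.7, 63.7 and 74.8. The sets did not overlap, and no CAC_FPL library lay between 27.7 and 63.7. CAC replicate 2 was at 27.2 and the other CAC libraries were at -10.1 to -4.3, CAC_F libraries at 78 to 123.3 and NC libraries at -12 to 4.4. In CAC_FP, 4 libraries were at 71.5 to 85 and replicate 4 at 40.9, with summed haemoglobin of 0.111 CPM and Rrm2 at 83.7 CPM in that library. H1 to H3 were thus above the other 4 CAC libraries, and H4 to H6 were below all 5 CAC_F libraries. The genes were chosen, and both ends set, on these same CAC and CAC_F libraries. Libraries outside that choice can lie nearer the middle for that reason alone, and its part was not tested. Under every alternative tried for the scale, H1 to H3 stayed between 15.5 and 38.9 and H4 to H6 between 57.9 and 78.6.

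**Figure D3:**
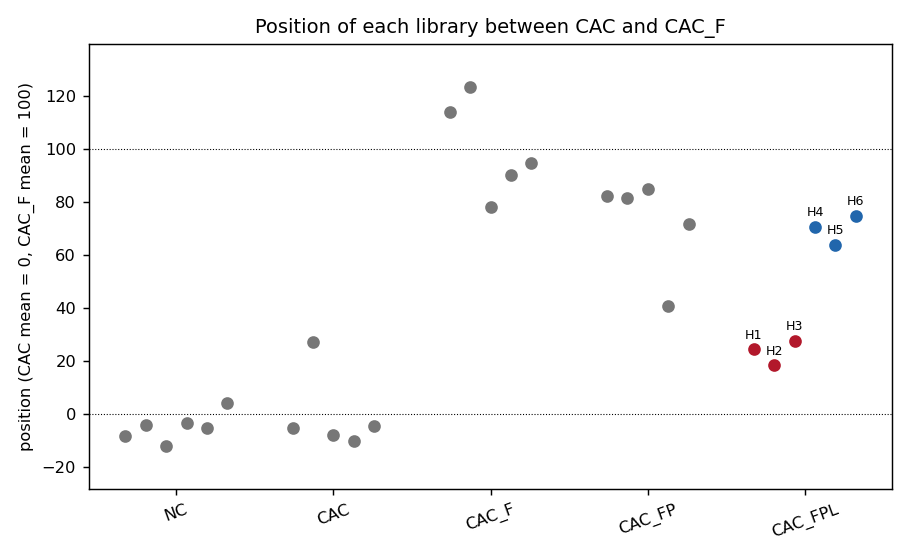
Position of each of the 27 libraries on the scale from the CAC mean (0) to the CAC_F mean (100), dotted lines, by group. H1 to H3 (red, 18.4 to 27.7) and H4 to H6 (blue, 63.7 to 74.8) fall on either side of a stretch with no CAC_FPL library, in which CAC_FP replicate 4 lies at 40.9.

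The globins, whose levels chose the sets, are given as a description. Their median difference was 5.74 log2 units, and 6.29 without H3. Hbb-bt, another adult beta-globin gene, was at 17.2, 5.83 and 2.89 CPM against 0, 0 and 0.0829 CPM, and Hba-a2 was at 36.3, 13 and 7.3 CPM against 0, 0.174 and 0.925 CPM. H1 was highest and H3 lowest of its set for each of the 4. In CAC_F all 4 fell, with Hba-a1 at a log2 fold change of -9.43 ± 0.83 (SE; adjusted p = 6.74e-07, edgeR), and Hbb-bs and Hbb-bt at 0 in every CAC_F library. Hba-a1 and Hba-a2 are near-identical copies, as are the adult beta-globins in part, so their shares of reads are uncertain.

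Mitosis genes had lower means in H1 to H3 for all 32 members tested. Of 32 mitosis genes, 30 were higher in all of H4 to H6 than in all of H1 to H3, and 22 by at least 2-fold. The shares of all genes tested were 14.1% and 2.58%. Ccnb1, the cyclin that drives entry into mitosis, was at 48.8, 45.8 and 14.4 CPM against 65.7, 95.8 and 78 CPM. Hmmr, a spindle protein, was at 27.3, 25.6 and 10.2 CPM against 38.9, 51.6 and 52.8 CPM, and Ect2, an exchange factor for cytokinesis, at 48.8, 41.8 and 14 CPM against 70.6, 75.2 and 79 CPM. H3 was far below H1 and H2 in each. Without H3, 30 of the 32 did not overlap, but 0 reached 2-fold, beside 414 of all 15080 genes tested. Fewer libraries separate more easily, and the share of all genes without overlap is not given for that division. Nothing is therefore read from the 30 without H3. The list's median difference went from -1.05 to -0.58 without H3, where the median over all genes tested with H3 was 0. The mean log2 level of the list was 5.20, 5.13 and 3.87 in H1 to H3 and 5.50, 5.95 and 5.85 in H4 to H6, beside 4.94 to 5.67 in CAC and 5.65 to 6.28 in CAC_F. In CAC_F 28 of the 32 rose and 0 fell, beside 20.7% and 19.3% of all genes tested. Ccnb1 rose by 1.21 ± 0.16 (adjusted p = 2.26e-05, edgeR), and Mki67, the usual proliferation marker, by 0.60 ± 0.20 (adjusted p = 0.0227, edgeR), a call lost without CAC replicate 1, 4 or 5, without CAC_F replicate 3 or with CAC and CAC_F alone in the fit, with adjusted p of 0.000777 to 0.0688 as single libraries were left out. In CAC_FPL Mki67 was at 193, 176 and 103 CPM against 198, 273 and 268 CPM, a separation of little more than the distance between H1 and H4.

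Replication genes differed in the same direction. All 43 replication and S phase genes had lower means in H1 to H3, 39 of them without overlap and 9 by at least 2-fold. The shares of all genes tested were 14.1% and 2.58%. The median difference was -0.78, and -0.67 without H3, where 40 did not overlap and 1, E2f7, reached 2-fold. At 2-fold 414 of all genes tested were counted without H3. The share of all genes without overlap is not given for that division, so nothing is read from the 40. Ccne1, the cyclin of S phase entry, was at 12.45, 11.2 and 7.9 CPM against 22.7, 24.8 and 23.5 CPM, where H4 to H6 were within the CAC_F range of 19.8 to 34.95 CPM. E2f7, a repressor in the E2F family, was at 6.6, 4.81 and 3.18 CPM against 10.4, 14 and 11.7 CPM, and Mcm10, a replication initiation factor, at 23.9, 24.8 and 12 CPM against 40, 50 and 42.9 CPM. In CAC_F 37 of the 43 rose and 0 fell, beside 20.7% and 19.3% of all genes tested. Ccne1 rose in CAC_F by 1.69 ± 0.23 (adjusted p = 2.79e-05, edgeR). Among 19 genes of deoxynucleotide supply, Rrm2 was used to choose the sets, and of the others Cda, which deaminates cytidine, was the one counted, as higher in H1 to H3, at 9.57, 8.72 and 7.16 CPM against 4.12, 4.24 and 1.59 CPM. Rrm2 rose in CAC_F by 2.55 ± 0.34 (adjusted p = 2.63e-05, edgeR) and Cda fell by 2.21 ± 0.36 (adjusted p = 0.00014, edgeR).

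Of 27 p53 target genes, 3 were counted as higher in H4 to H6, and 11 did not overlap at any fold. The shares of all genes tested were 2.58% and 14.1%. Eda2r, a death receptor that p53 induces, was at 3.6, 3.17 and 2.04 CPM against 16.9, 14 and 12.4 CPM, with H5 and H6 near the lowest CAC_F library at 13.7 CPM. Gdf15, a stress cytokine, was at 3.25, 1.85 and 2.79 CPM against 10.2, 12 and 5.4 CPM. The third, Ckap2, a spindle protein, was no longer counted without H3. Cdkn1a, the cell cycle inhibitor that is the best known p53 target, was at 75, 81 and 149 CPM against 131, 171 and 115 CPM, and H3 lay inside the H4 to H6 range. In CAC_F 19 of the 27 rose and 1 fell, beside 20.7% and 19.3% of all genes tested. Eda2r rose in CAC_F by 3.26 ± 0.43 (adjusted p = 2.79e-05, edgeR).

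Gasdermin C and mucosal pentraxin genes are products of differentiated colon epithelium. Of 8 members, 6 were counted as higher in H1 to H3, beside 1.86% of all genes tested. The median difference was 3.58 log2 units, and 3.84 without H3. Gsdmc4 was at 40, 304 and 19.6 CPM against 4.53, 2.47 and 4.86 CPM, and Mptx1 at 8.12, 15 and 15.3 CPM against 1.04, 1.63 and 0.152 CPM. H2 was far above H1 and H3 for Gsdmc4, and it was the only one of them inside the CAC range of 301 to 1146 CPM. For Mptx1 all of H1 to H3 were under the lowest CAC library, at 20.7 CPM, while H4 and H5 were above the highest CAC_F library, at 0.42 CPM. Both fell in CAC_F, by 7.14 ± 0.51 for Gsdmc4 (adjusted p = 4.46e-08, edgeR) and 7.59 ± 1.15 for Mptx1 (adjusted p = 8.39e-05, edgeR). Gsdmc2, Gsdmc3 and Gsdmc4 are close copies, as are Mptx1 and Mptx2, so single values within these families are uncertain.

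Goblet cells make the mucus of the colon, and 19 of 19 goblet genes had higher means in H1 to H3. Of these, 9 were without overlap and 7 differed by at least 2-fold as well, beside 14.7% and 1.86% of all genes tested. The transcription factor Creb3l1 was at 234, 288 and 309 CPM against 116, 132 and 90.8 CPM, with a difference of 1.30 log2 units. Retnlb, an antimicrobial product of goblet cells, was at 72.9, 408 and 93 CPM against 14.2, 47.5 and 36 CPM. Spink4 was at 75.3, 91 and 259 CPM against 49.1, 48.8 and 37.5 CPM, and was not counted without H3. The calcium-activated channel regulator Clca1 overlapped, at 430, 2547 and 1440 CPM against 545, 842 and 288 CPM, and all 6 were below the CAC range of 4691 to 21320 CPM. The main mucin Muc2 overlapped as well, at 18520, 20880 and 10820 CPM against 19550, 16530 and 4071 CPM. In CAC_F 12 of the 19 fell and 0 rose, beside 19.3% and 20.7% of all genes tested. Creb3l1 was at a log2 fold change of -1.82 ± 0.20 in CAC_F (adjusted p = 6.36e-06, edgeR). H6 had the lowest list mean of the 6, at a log2 level of 6.34 against 7.34 to 8.25 in the others.

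Single epithelial genes outside these lists had large differences. Itln1, an intestinal lectin, was at 8.93, 351 and 8.29 CPM against 0.31, 0.441 and 0.318 CPM, a difference of 6.04 log2 units in which H2 alone reached the CAC range of 343 to 5020 CPM. Aqp8, a water channel of the absorptive surface, was at 43.3, 25.1 and 333 CPM against 2.02, 5.66 and 1.02 CPM, with H3 above the highest CAC library at 71.4 CPM. Aqp8 was not called in CAC_F (log2 fold change -2.08 ± 1.16, adjusted p = 0.163, edgeR), but was called without CAC_F replicate 3, at -4.30 (adjusted p = 0.00911, edgeR). Slc26a3, the chloride exchanger of colonocytes, overlapped at 94, 134 and 502 CPM against 44.5, 125 and 44.1 CPM. Of 25 colonocyte genes, 2 were counted as higher in H1 to H3, Aqp8 and the carbonic anhydrase Car2, beside 1.86% of all genes. The detoxifying cytochromes Cyp2f2 and Cyp2c68 were at 4.85 to 32.9 CPM and 7.81 to 78.5 CPM in H1 to H3, each highest in H3, against at most 0.989 and 1.76 CPM. Klk1b4, a kallikrein, had 1098 counts over H1 to H3 and 0 over H4 to H6, at least 395-fold higher against a floor of 3 counts over the set, with reads that close kallikrein copies may share. Intervals and floors of this kind cover counting error only. The call of Klk1b4 in CAC_F (adjusted p = 0.0387, edgeR) was lost with DESeq2, with no filter, with all 27 libraries or only the groups compared in the fit, and without CAC replicate 1, 3 or 4 or CAC_F replicate 1, 2, 3 or 5, with adjusted p of 0.00306 to 0.0756 as single libraries were left out. Of 11 tuft cell genes, Trpm5 and Sh2d7 were counted as higher in H1 to H3, beside 1.86% of all genes tested. Means were higher in H1 to H3 for 7 of the 11. Trpm5 was at 0.751, 2.67 and 1.3 CPM against 0.546, 0.722 and 0.677 CPM, all below the CAC range of 3.96 to 12.8 CPM. Its difference of 1.00 log2 units was the least that the rule counts, with a gap of 0.05.

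**Figure D4:**
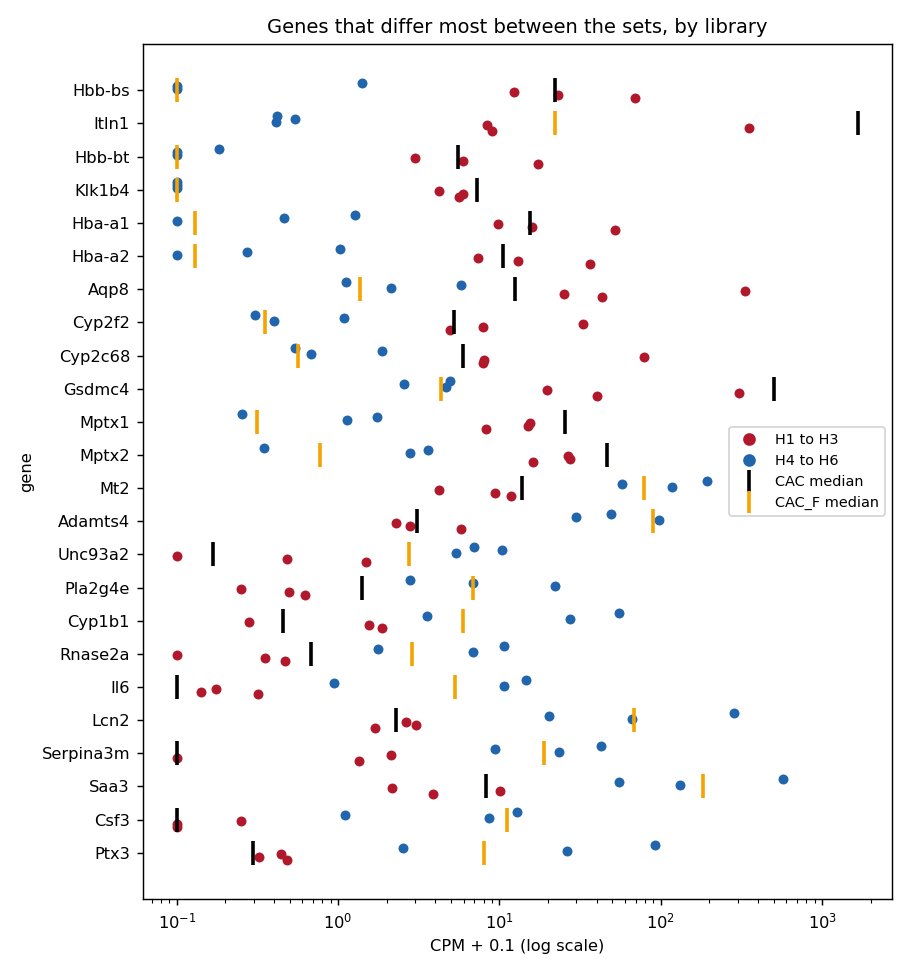
The 12 genes with the largest difference in each direction, by library, as CPM + 0.1 on a log axis, with the medians of CAC (black) and CAC_F (orange) as bars. H1 to H3 (red) and H4 to H6 (blue) do not overlap for any of the 24 genes, because only genes without overlap were eligible. The spread inside a set reaches more than 10-fold for genes such as Itln1, Saa3 and Ptx3.

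The genes with the largest differences toward H4 to H6 had varied roles. Ptx3, a soluble pattern recognition protein, was at 0.382, 0.224 and 0.345 CPM in H1 to H3 and at 26, 2.41 and 91.5 CPM in H4 to H6, the largest difference at -5.46 log2 units. Saa3, an acute phase apolipoprotein, was at 3.8, 10 and 2.07 CPM against 132, 55 and 569 CPM, and Lcn2, which withholds iron from bacteria, at 1.6, 2.95 and 2.55 CPM against 66.1, 20.1 and 286 CPM. For each of these H6 was highest and H5 lowest of their set. Saa3 rose in CAC_F by 5.94 ± 0.96 (adjusted p = 0.000138, edgeR) and Lcn2 by 6.57 ± 1.09 (adjusted p = 0.000165, edgeR). Ptx3 was at 0.146 to 2.15 CPM in CAC and at 2.07 to 76.5 CPM in CAC_F. It is given without a test, since it may have passed the filter only through libraries in which it is high. Mt2, a metal-binding metallothionein, was at 11.6, 9.27 and 4.12 CPM against 117, 57.7 and 193 CPM, and the matrix protease Adamts4 at 5.64, 2.68 and 2.17 CPM against 97.9, 29.8 and 49.2 CPM. Serpina3m was at 0 to 2.02 CPM against 9.25 to 42.35 CPM, in a family of close copies. Cyp1b1, a cytochrome that oxidises steroids and aromatic compounds, was at 1.76, 1.46 and 0.18 CPM against 27.4, 3.45 and 54.98 CPM. Rnase2a, a ribonuclease of eosinophils and macrophages, was at 0.369, 0.253 and 0 CPM against 6.78, 1.66 and 10.6 CPM. Cyp1b1 was at 0.131 to 1.23 CPM in CAC and at 1.61 to 21.8 CPM in CAC_F, without a test for the same reason as Ptx3. Rnase2a was not called in CAC_F (0.73 ± 0.85, adjusted p = 0.513, edgeR), but was without CAC replicate 3, at 2.91 (adjusted p = 0.00424, edgeR).

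Cytokines were lowest in H5 within H4 to H6. Csf3, the growth factor of granulocytes, was at 0, 0 and 0.15 CPM in H1 to H3 and at 8.53, 1 and 12.8 CPM in H4 to H6. Il6, the inducer of acute phase proteins, was at 0.218, 0.0421 and 0.0749 CPM against 10.6, 0.842 and 14.6 CPM. Cxcl1, a neutrophil attractant, overlapped because H5 (3.49 CPM) was below H3 (4.27 CPM), with 1.15 and 1.66 CPM in H1 and H2 and 36.1 and 86.3 CPM in H4 and H6. Of 22 inflammatory genes, 5 were counted as higher in H4 to H6 and 0 as higher in H1 to H3, or 12 without H3 and 14 without H5. Their mean log2 level was 0.42, 0.56 and 1.54 against 3.33, 1.10 and 3.25, so H5 lay below H3. Of 27 listed members 22 passed the filter, some only through libraries in which they are high, so no count of them is given for CAC_F. The counts of 5, 12 and 14 within CAC_FPL carry the same limit, and nothing is read from them. Csf3 was at most 0.183 CPM in CAC and at 1.04 to 268 CPM in CAC_F, given as values without a test for the same reason. Summed neutrophil genes, at 38.1, 58.7 and 146 CPM against 343, 606 and 115 CPM, overlapped, and their part in these values was not tested. Il1b overlapped, at 5.69, 7.04 and 10.6 CPM against 15, 2.43 and 4.24 CPM.

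Of 14 genes of regenerating, fetal-like epithelium and YAP targets, 6 were counted as higher in H4 to H6 and 7 without H3. The share of all genes counted in this direction, with H3, was 2.58%. Ereg, a ligand of the epidermal growth factor receptor, was at 40.7, 24.7 and 32.7 CPM against 242, 87.2 and 84.4 CPM. Ly6a, a surface protein of regenerating gut epithelium, was at 61.9, 80.3 and 134 CPM against 260, 190 and 524 CPM. For both genes the lowest of H4 to H6 lay above the highest of H1 to H3, as the rule for a counted gene requires. In CAC_F 10 of the 14 rose and 0 fell, beside 20.7% and 19.3% of all genes tested. Ereg rose in CAC_F by 3.25 ± 0.45 (adjusted p = 3.95e-05, edgeR). The squamous keratins Krt4 and Krt6a were counted as higher in H4 to H6 at low levels, Krt4 at 1.05, 0.519 and 0.21 CPM against 1.74, 1.14 and 1.69 CPM, and Krt4 was not counted without H3. Summed squamous genes overlapped, at 182 to 256 CPM in H1 to H3 and 189 to 255 CPM in H4 to H6.

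Of 12 immediate early genes, 6 were counted as higher in H4 to H6, also without H3, beside 2.58% of all genes tested. For 2 of the 12 the means were higher in H1 to H3. Egr1, a transcription factor induced within minutes of a stimulus, was at 22.1, 34.5 and 36.5 CPM against 271, 108 and 292 CPM. Fosb, a subunit of AP-1, was at 2.6, 3.49 and 5.54 CPM against 27.4, 6.58 and 157 CPM, with H5 close to H3. In CAC_F 4 of the 12 rose and 2 fell, beside 20.7% and 19.3% of all genes tested. Egr1 rose there by 1.99 ± 0.74 (adjusted p = 0.0373, edgeR) and Fosb was at 0.62 ± 1.01 (adjusted p = 0.65, edgeR). For Fosb both H4 and H6 were above the highest CAC_F library, at 6.6 CPM, and H5 was level with it. The highest NC library was at 120 CPM for Fosb and 284.9 CPM for Egr1, above H4 and H5 and below H6 for both genes. Nr4a1, an orphan nuclear receptor, was at 34.9, 30.5 and 29.5 CPM against 146, 42.2 and 94.9 CPM, where H5 was again nearest to H1 to H3.

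Macrophage genes divided in both directions. Ccr2, the receptor of recruited monocytes, was at 19.8, 10.9 and 26.2 CPM against 5.91, 3.77 and 4.92 CPM. In the opposite direction, the mannose receptor Mrc1 was at 71.3, 53.3 and 55.6 CPM against 215, 111 and 227 CPM, and the haemoglobin scavenger receptor Cd163 at 28.9, 9.5 and 2.11 CPM against 78.4, 34 and 146 CPM. Ccr2 fell in CAC_F by 1.45 ± 0.32 (adjusted p = 0.00176, edgeR), and Mrc1 rose by 2.12 ± 0.33 (adjusted p = 9.99e-05, edgeR) and Cd163 by 1.66 ± 0.51 (adjusted p = 0.0148, edgeR). Of 19 macrophage genes these and Itgam were counted, and Itgam was not without H3. In either direction 4.44% of all genes tested were counted. Hmox1, which breaks down haem, was at 14.3, 11.9 and 13.7 CPM against 28.7, 18.9 and 36.7 CPM, opposite to the globins, and rose in CAC_F by 1.99 ± 0.26 (adjusted p = 2.52e-05, edgeR). No other of 14 iron and haem genes was counted.

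Clock genes separated the sets, in part outside the range of CAC. Of 18 clock genes, 7 were counted as higher in H1 to H3 and 1, the repressor Nfil3, as higher in H4 to H6. The shares of all genes tested were 1.86% and 2.58%. Per2, a core repressor of the clock, was at 115, 108 and 155 CPM against 25.8, 44.2 and 76.2 CPM, where CAC was at 17.3 to 46 CPM and CAC_F at 32.2 to 47 CPM. Per3 was at 53.9, 54 and 78.3 CPM against 12.3, 28.6 and 20.3 CPM, with CAC at 15.8 to 44.3 CPM. Dbp, a clock-driven transcription factor, was at 23.7, 32.6 and 36.3 CPM against 2.79, 9.59 and 5.57 CPM, inside the CAC range of 17.7 to 49.6 CPM. H1 to H3 thus exceeded every CAC library for Per2 and Per3 and not for Dbp. In CAC_F 4 of the 18 rose and 4 fell, near the 20.7% and 19.3% of all genes tested, so nothing is read from these counts. Dbp fell by 2.505 ± 0.57 (adjusted p = 0.00192, edgeR), and neither Per2 (0.32 ± 0.23, adjusted p = 0.274) nor Per3 (-0.93 ± 0.45, adjusted p = 0.111) was called by edgeR. Cry1, named after its values were seen, did not divide the group, at 46.4, 41.9 and 38.6 CPM against 39, 41 and 41.9 CPM, and all 6 were above the CAC range of 13.8 to 19.1 CPM.

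Few genes placed a set outside every other library of the series. H1 to H3 exceeded all 21 libraries of the other groups for 9 of the 669 genes and were below them for 2, and H4 to H6 were below them for 1 and above for 0. These genes were named after their values were seen. Besides Per2, the 9 included enzymes of fatty acid synthesis. Scd1, the stearoyl-CoA desaturase, was at 866, 133 and 223 CPM against 36.9, 28.3 and 63.5 CPM, where the highest other library was at 131 CPM. Fasn, the fatty acid synthase, was at 1410, 452 and 523 CPM against 197, 226 and 288 CPM, with the highest other library at 390 CPM. H1 stood above H2 and H3 for both, and neither was called in CAC_F (Scd1 -0.56, adjusted p = 0.301; Fasn 0.22, adjusted p = 0.35, edgeR). Among the others were Cyp2w1, Ccn3, Gstm1, Pdx1 and the predicted gene Gm45819. The insulin-like growth factor binding protein Igfbp3 and the receptor Glp2r were those below, Igfbp3 at 22.4, 31.7 and 36.6 CPM where the lowest other library was at 46.5 CPM. Igkv4-91, an immunoglobulin segment, was the gene below in H4 to H6.

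Oxidative stress genes divided in both directions. Of 18 Nrf2 targets, Gstm1 and Nqo1 were counted as higher in H1 to H3 and Gpx2 and Hmox1 as higher in H4 to H6. Nqo1, a quinone reductase, was at 53.5, 42.9 and 28.1 CPM against 11.7, 18.4 and 21.5 CPM and fell in CAC_F by 1.12 ± 0.34 (adjusted p = 0.0143, edgeR). Gpx2, the glutathione peroxidase of gut epithelium, was at 513, 456 and 219 CPM against 863, 1057 and 1130 CPM and rose in CAC_F by 2.59 ± 0.31 (adjusted p = 1.7e-05, edgeR). Few NAD genes were counted, a metabolism that the title of the series names. With 4.44% of all genes counted in either direction, nothing is read from this. Ido1, which starts tryptophan breakdown toward NAD, was counted of 14 NAD synthesis genes, at 22.4, 14.4 and 3.37 CPM against 63.5, 25.5 and 145 CPM. No NAD-consuming gene was counted of 20, and the salvage enzyme Nampt was at 83.5, 88.6 and 87.5 CPM against 97.2, 83.8 and 149 CPM. The NAD hydrolase Cd38 overlapped, at 110, 195 and 274 CPM against 140, 384 and 240 CPM.

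Other lists had few counted members, where 4.44% of all genes tested were counted in either direction. The fibroblast list had 3 of 17 higher in H4 to H6, among them the collagen gene Col6a1 (228, 190 and 151.5 CPM against 468.5, 319 and 366 CPM), and 1 of 17 without H3. Enteric neuron and glia genes had 2 of 11 higher in H4 to H6, and 1 without H3. The integrated stress and endoplasmic reticulum list had 3 of 16 higher in H4 to H6, one of which, Chac1 (a glutathione-degrading enzyme), fell in CAC_F by 1.31 ± 0.50 (adjusted p = 0.0415, edgeR). Epithelial defence genes had 2 of 18 in each direction, and enteroendocrine genes 1 of 11 higher in H1 to H3, Insm1, which was not counted without H3. Several cell type lists had no counted member. At the share over all genes a short list can hold none, so nothing is read from its absence. These lists were smooth muscle (16 tested), endothelium (14), T cells (14), cytotoxic cells (5), B and plasma cells (19), mast cells and eosinophils (8), MHC class II (11), neutrophils (8), stem cells (15) and interferon response (25). Glycolysis genes (22) also had none. Summed smooth muscle was 2760 to 5640 CPM in H1 to H3 and 3910 to 8060 CPM in H4 to H6. Most of the summed neutrophil level was Ly6g, at 21.2, 45.9 and 118 CPM against 321, 592 and 89.5 CPM, and the defining S100a8 was at 0.107 to 1.54 CPM in all 6. Without H5, 18 of the 25 interferon genes were counted as higher in H4 and H6, beside 742 of all 15080 genes tested. List means were 4.76 and 5.59 in H4 and H6 against 3.29 to 4.13 in H1 to H3 and 3.26 in H5. These means were 4.26 to 5.99 in CAC and 3.34 to 4.64 in CAC_F. H4 and H6 thus lay inside the CAC range and above CAC_F, and H1 to H3 and H5 lay below every CAC library. In CAC_F 16 of the 25 fell and 1 rose, beside 19.3% and 20.7% of all genes tested. For B and plasma cells 4 of 19 were counted as higher in H4 to H6 without H3, beside 414 of all 15080 genes tested. H3 had a list mean of 5.59 against 2.40 to 4.34 in the others. Opioid receptors, the targets of loperamide, were under the filter, with Oprm1 at 0 to 0.112 CPM in all 6, and the opioid peptide gene Penk was at 7.51, 8.37 and 3.31 CPM against 9.34, 11 and 14.6 CPM. Their part in the division was not tested.

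**Figure D5:**
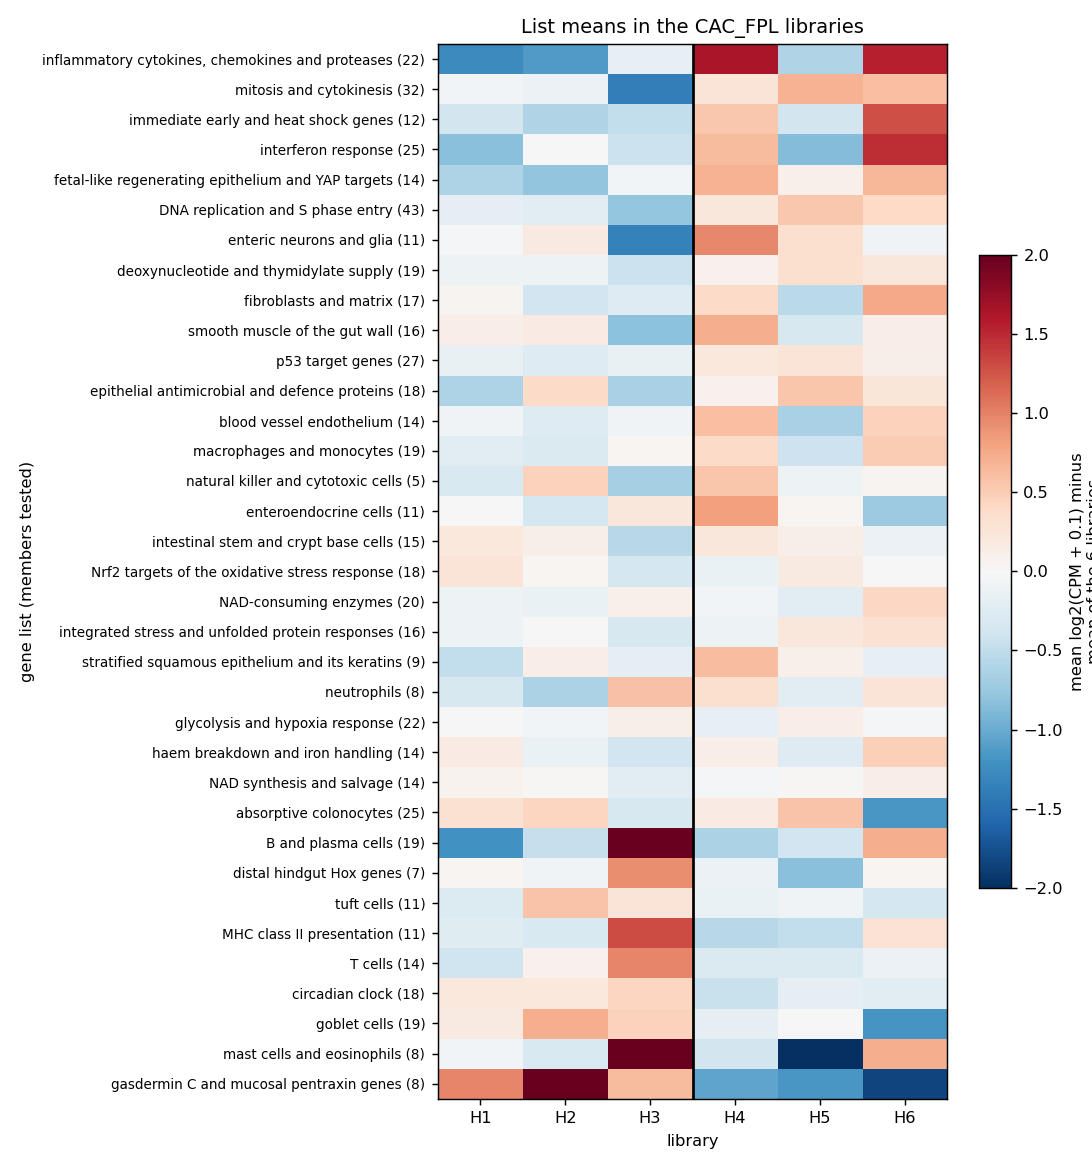
Mean log2(CPM + 0.1) of each gene list in H1 to H6 minus the mean over these 6 libraries, for lists with at least 5 members tested, in order of the median difference between the sets. The gasdermin, goblet and clock lists are higher in H1 to H3 and the replication and mitosis lists in H4 to H6, while H3 is highest for the B cell and MHC class II lists, with H6 next, and H5 stays apart from H4 and H6 for inflammatory and interferon lists.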

How the data were processed

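RNA of 27 colon libraries was sequenced as cDNA from a dUTP-marked second strand, per the labels' protocols. Reads were handled with cutadapt 1.9, FastQC and HISAT2, per the submitters' processing notes. No label or header used here names the genome build or the gene counter. The deposited table gives the authors' raw read counts per gene and FPKM values. FPKM served for the filter, at least 1 in at least 5 of 27 libraries, which kept 15080 of 39971 genes and 99.03% to 99.41% of the counts. Total counts were 56687812 to 79709845, and intervals and floors cover counting error only.

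Levels are CPM, counts scaled to library size with edgeR's TMM factors, on the log2(CPM + 0.1) scale for differences. The quasi-likelihood test of edgeR 4.0.16 (R 4.3.3) was fitted on 21 libraries, without CAC_FPL, with Benjamini-Hochberg adjustment over 15080 genes and a threshold of 0.05, and was tested on simulated data. SE is the absolute log2 fold change divided by the square root of F, an approximation. DESeq2 1.42.0 and limma 3.58.1 on log2(FPKM + 1) were alternatives, and Python 3.11.15 read promoters and drew plots. Named genes are the 12 largest differences in each direction, leaving out predicted genes and antigen receptor segments, up to 4 counted members of each list with the largest differences, and a short set of markers. Members, lists and rules were chosen with earlier results of these data known. Values of some list members are not reported here.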

Additional observations from a re-analysis of the deposited data

Results flagged for a closer look

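In 84 sets of 4 to 10 libraries, 7 had a highest or lowest library whose distance to the next, divided by the range, passed Dixon's limit at the 95% level, and chance gives about 1 in 20 sets. CAC replicate 2 was highest of the CAC libraries on the scale between CAC and CAC_F, at 27.2. Within CAC_FPL, H3 was highest for Hoxb13, at 289 CPM, and lowest for Hoxd9, at 0.824 CPM, for Hoxd10, at 1.53 CPM, and for Hoxd11, at 1.24 CPM. H3 was also highest for the mean of the T cell list, at a log2 level of 2.93. H6 was highest for Nampt, at 149 CPM.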

How the results depend on the processing

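No alternative reversed the direction of the 34 genes recomputed under every setting, and the positions of H1 to H6 moved by less than the spread between libraries in all 78 recomputations. Among the other named genes, none of them counted, the difference (H1 to H3 minus H4 to H6) changed sign without H3 for Fcer2a (0.78 to -0.91), H2-Ob (0.82 to -0.41) and Gzma (-0.37 to 0.2). List medians changed sign without H3 for B and plasma cells (0.22 to -0.91), neutrophils (0.02 to -0.43), squamous genes (0.02 to -0.01), Nrf2 targets (-0.09 to 0.07) and the stress list (-0.02 to 0.02). Without H5 they did for epithelial defence (-0.3 to 0.05), neutrophils (0.02 to -0.44), distal Hox (0.22 to -0.01) and squamous genes (0.02 to -0.06). Genes higher in H1 to H3 numbered 141 on log2(FPKM + 1), 440 with no filter, 134 at a mean FPKM of at least 5 and 58 at 4-fold, and 302 to 411 as single libraries were left out. Genes higher in H4 to H6 numbered 214, 763, 155 and 83 in the same order, and 414 to 742 as single libraries were left out, with 589 without H1 and 742 without H5. At a mean FPKM of at least 5, 1977 genes rose and 1834 fell in CAC_F, and 2649 to 3213 rose and 2419 to 3032 fell as single libraries were left out. In CAC_FP 1185 rose with only the groups compared in the fit, and 898 fell with no filter. As single libraries were left out 1167 to 2106 rose and 838 to 1722 fell in CAC_FP, with 1167 and 923 without CAC replicate 4, 1204 and 847 without CAC_FP replicate 2, and 1205 and 838 without CAC_FP replicate 3.

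With the tests limited to a mean FPKM of at least 5, 126 genes higher in H4 to H6 rose in CAC_F and 108 in CAC_FP, and 130 higher in H1 to H3 fell in CAC_F. With the division made on log2(FPKM + 1), at a mean FPKM of at least 5 or at 4-fold, 181, 137 and 69 rose and 111, 116 and 40 fell in CAC_F, and 161, 115 and 63 rose and 81, 83 and 36 fell in CAC_FP. The higher FPKM minimum and the 4-fold limit admit fewer genes by construction. For the log2(FPKM + 1) division, where 199 of its 214 genes higher in H4 to H6 were among the 389, and for the other settings the cause was not tested. As single libraries of the compared groups were left out of the fit, 291 to 314 rose and 196 to 211 fell in CAC_F. In CAC_FP 214 to 272 rose and 107 to 177 fell. As single CAC_FPL libraries were left out of the division, 301 to 416 rose and 200 to 286 fell in CAC_F. In CAC_FP 226 to 326 rose and 137 to 183 fell. Without H3 and CAC replicate 2, a choice made after seeing the data, 303 rose and 282 fell in CAC_F.

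Same-numbered CAC and CAC_F libraries had correlated deviations of 0.017 to 0.276, with a median of 0.123. Differently numbered pairs had -0.309 to 0.194, with a median of -0.027. For CAC_F and CAC_FP the medians were 0.139 and -0.052, and for CAC and CAC_FP 0.037 and -0.034. The ranges overlap, and whether libraries of the same number share more than that number was not tested. With the replicate block 2991 genes rose and 2846 fell in CAC_F and 1745 and 1317 in CAC_FP, and of the divided genes 308 rose and 214 fell in CAC_F and 252 and 156 in CAC_FP.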
